A study of Rattus norvegicus with 21 samples.

Results

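The genes described here were 10 cyclins and cyclin-dependent kinases of G1 and S phase: the D cyclins Ccnd1, Ccnd2 and Ccnd3, the E cyclins Ccne1 and Ccne2, the A cyclins Ccna2 and Ccna1, and the kinases Cdk4, Cdk6 and Cdk2. They were found by gene symbol in the annotation of the array, and each had 1 probe set, so that no choice between probe sets was needed. The 10 probe sets were read out of 29214 in all, of which 15310 carried 1 gene symbol.

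RNA of 16 individual adenomatous lesions of the pituitary was hybridized to Rat Gene 1.0 ST arrays of Affymetrix. The lesions came from MENX rats, a strain that develops multiple endocrine tumors, and were set against 5 normal pituitaries of wild-type rats. The mutant rats were homozygous for the p27Kip1 mutation (gene Cdkn1b, spelled Cdknb1 in the labels), their tumor tissue was macrodissected, and both groups were untreated animals of the Sprague–Dawley white eye/Wistar–Kyoto strain. The lesions carried 9 sample numbers, read here as rats, of which 4 gave 1 lesion, 3 gave 2 and 2 gave 3, and the 9 rats were 6 females and 3 males of 7, 8, 10, 11 or 12 months. The wild-type rats were 2 females and 3 males, all 6 months old, so that genotype and age cannot be told apart. The study's text gives more mutant rats than the labels do. It gives their age as 8 months or as 7–8 months, while the labels run to 12 months. The averaging by rat, n and all results on age rest on the labels. Sample numbers began with 08 (5 adenoma rats and 2 wild-type rats) or 09 (4 adenoma rats and 3 wild-type rats). Values are log2 intensities summarized per probe set. Lesions of the same rat were averaged before any test, so that n was 9 adenoma rats against 5 wild-type rats, and p-values come from limma with Benjamini-Hochberg adjustment over all 29214 probe sets. A gene was called at an adjusted p under 0.05.

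D-type cyclins bind and activate Cdk4 and Cdk6 in response to growth signals, and these complexes phosphorylate the retinoblastoma protein, which releases E2F factors. E2F factors drive transcription of the E and A cyclins, which activate Cdk2 at the entry into S phase and during DNA replication. The protein p27Kip1 binds cyclin E-Cdk2 and cyclin A-Cdk2 and blocks their activity, and mice that lack it develop pituitary tumors.

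Promoter sequences are shown for Ccnd3 and Ccne1, the called members described below for which the sequence table held a region around a listed start. The table held 5 of the 10 members, the others in it being Ccna1, Cdk4 and Cdk2. Each sequence runs 5′ to 3′ on the strand of the gene (build GRCr8, minus strand for both). It covers 250 bases before to 50 bases after a start listed in RefSeq. The whole span of Ccnd3 is 20891696 to 20987199, so its window lies inside the gene and not at its upstream end. Capitals mark GGGCGG (the GC box) and CCAAT on either strand.
Ccnd3, chr9:20897826-20898125: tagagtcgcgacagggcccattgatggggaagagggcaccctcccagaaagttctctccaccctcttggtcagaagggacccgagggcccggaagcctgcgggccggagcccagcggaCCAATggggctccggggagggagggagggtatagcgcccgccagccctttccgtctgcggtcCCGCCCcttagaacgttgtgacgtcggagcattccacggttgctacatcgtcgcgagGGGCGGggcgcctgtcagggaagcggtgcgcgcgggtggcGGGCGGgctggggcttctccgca
Ccne1, chr1:99927860-99928159: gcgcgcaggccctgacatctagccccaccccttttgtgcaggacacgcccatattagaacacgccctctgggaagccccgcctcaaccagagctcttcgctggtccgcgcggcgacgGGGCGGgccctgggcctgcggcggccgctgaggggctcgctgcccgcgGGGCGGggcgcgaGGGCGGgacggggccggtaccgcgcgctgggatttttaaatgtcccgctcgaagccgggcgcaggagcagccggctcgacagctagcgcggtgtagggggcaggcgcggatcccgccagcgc
Both windows were rich in G and C, at 69.0% for Ccnd3 and 73.3% for Ccne1, against a median of 51.7% over 33469 rat promoters of the same length. Each held 3 matches to GGGCGG, a motif found in 33.1% of all promoters. Ccnd3 also held 1 CCAAT, which stood in 37.5% of all promoters, and Ccne1 held none. A further 3 motifs were searched on both strands: TTTNNCGC (E2F), CACGTG (E-box) and TTNGAA (a loose pattern for the cell cycle homology region). TTTNNCGC was in none of the 5 windows and in 4.92% of all promoters. The Cdk4 window held 3 CACGTG, which stood in 6.42% of all promoters. TTNGAA was matched once each in Ccnd3 and Ccne1, as TTAGAA in both, and stood in 41.3% of all promoters. These matches do not show that either gene carries a cell cycle homology region. A match in letters is a description and was not tested as a binding site.

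Across the whole array, 2479 probe sets (8.49%) were higher in adenomas and 2648 (9.06%) were lower. Without wild-type rat 4 these counts were 1573 and 1649. The median log2 difference was -0.03, and array medians ranged over 6.36 to 6.53. Cdkn1b, the gene mutated in MENX, was measured at 8.86, 9.21 and 9.58 (lowest, median and highest lesion), against 8.65 to 9.11 in wild-type pituitaries, with a log2 difference of 0.33 (adjusted p = 0.0324). That call was lost, with an adjusted p of 0.0528 to 0.103, when adenoma rat 3, adenoma rat 7, wild-type rat 2 or wild-type rat 4 was left out. The MENX mutation lies in the coding sequence, so an mRNA level is no check of the genotype. Of the gonadotroph markers, Cga, Gnrhr and Nr0b1 were higher in adenomas and Lhb and Fshb were lower, out of 6 measured. In all lists here, a gene counts as measured if the annotation gave it a probe set of 1 symbol. Nr5a1 had none and was left out, though the study reports it as higher in adenomas on these arrays. The summed level of the gonadotroph list was 14.12 to 14.37 in adenoma rats and 12.93 to 14.08 in wild-type rats on the log2 scale. The brightest genes weigh most in such a sum, so it is no level of a cell type. Here that gene was Cga, with means of 13.77 in adenomas and 12.86 in wild type, while Lhb and Fshb differed by -2.24 and -2.38. In the next list the brightest were Gh1 and Prl. Of the somatotroph and lactotroph markers, 4 of 7 were lower, with summed levels of 14.18 to 14.95 in adenoma rats and 15.03 to 15.21 in wild-type rats. Of the corticotroph and melanotroph markers, 4 of 5 were lower, at 10.03 to 11.94 in adenoma rats and 11.72 to 12.87 in wild-type rats. Of the macrophage markers, 8 of 12 were higher, at 10.55 to 11.49 in adenoma rats and 10.00 to 10.67 in wild-type rats. Of the pericyte and fibroblast markers, 6 of 12 were higher and 1 was lower, at 11.72 to 12.52 in adenoma rats and 11.42 to 12.05 in wild-type rats. Of the folliculostellate and stem cell markers, 5 of 9 were lower and 1 was higher, at 10.06 to 11.08 in adenoma rats and 10.55 to 11.78 in wild-type rats. Of the posterior lobe and glia markers, 4 of 8 were lower and 1 was higher, at 10.10 to 11.70 in adenoma rats and 10.09 to 10.47 in wild-type rats. The higher one was Vim, with means of 9.94 in adenomas and 8.55 in wild type. It was the brightest of that list by mean, so it weighed most in the sum. Of 3 thyrotroph markers 1 was lower, Tshb at -3.75. Endothelial markers (3 of 11 higher) and T and NK cell markers (1 of 11 higher) made up the rest of the calls, with none among 3 B and plasma cell and 3 red blood cell markers in limma (1 of each at an unadjusted p under 0.05). In such bulk tissue, fewer cells of a type and less RNA per cell cannot be told apart, and the part of these cell types in the differences below was not tested.

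Of the 10 members, 4 were higher in adenomas (Ccnd3, Ccne1, Ccne2 and Ccna2), 1 was lower (Cdk6) and 5 were not called (Ccnd1, Ccnd2, Ccna1, Cdk4 and Cdk2). Over all probe sets 8.49% were higher and 9.06% lower, so the count of lower members was near its share. The higher members differed by 1.65-fold to 2.51-fold and Cdk6 was 2.88-fold lower. The median log2 difference of the 10 was 0.28. The plot of values per array shows the lesions beside the wild-type pituitaries for each gene.

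**Figure D1:**
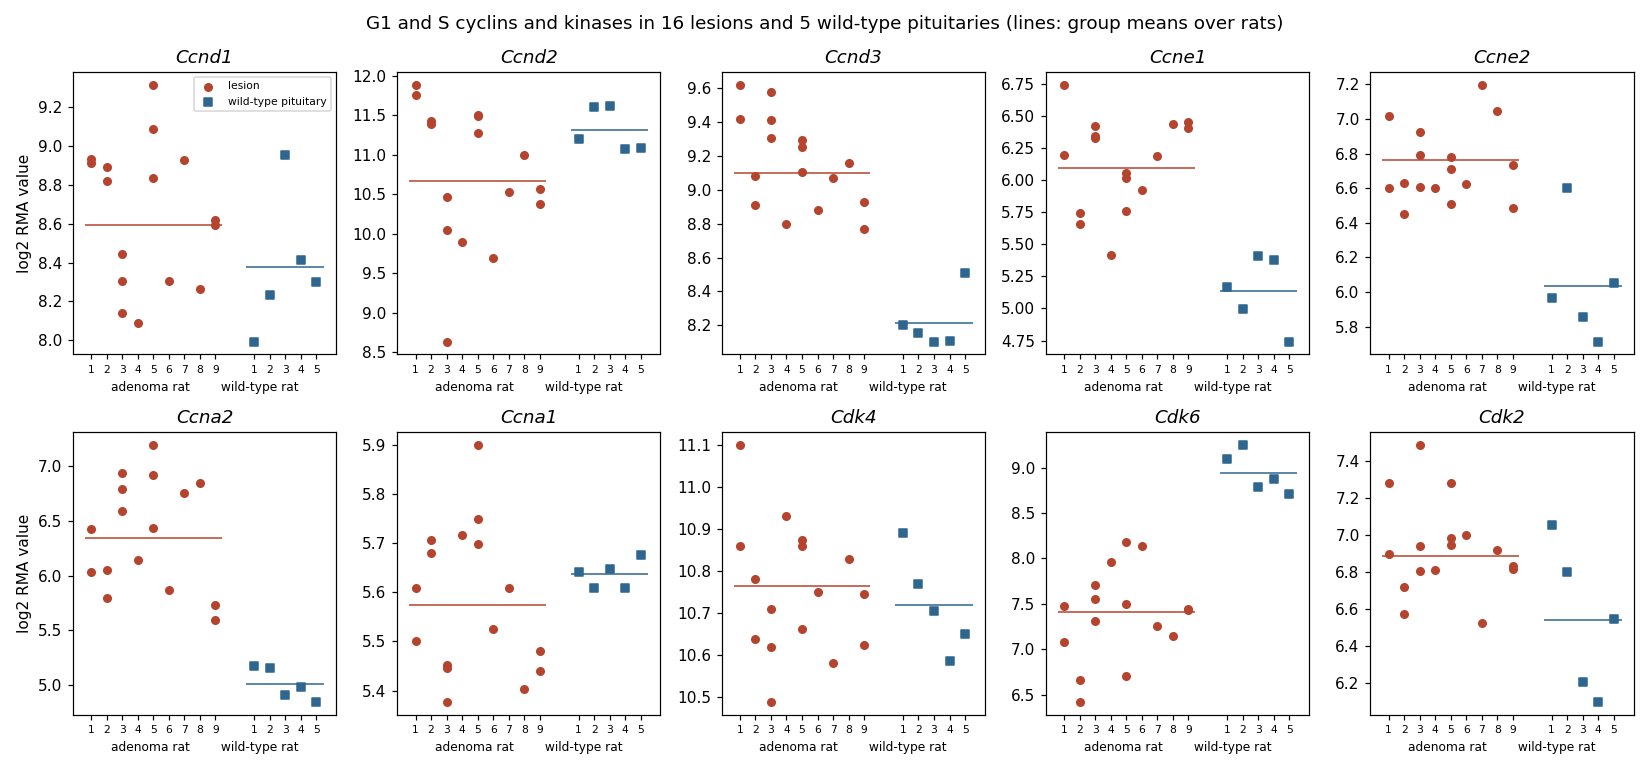
Log2 expression of the 10 members in each of 16 adenoma lesions (left in each panel) and 5 wild-type pituitaries (right), 1 panel per gene. All 16 lesions lay above all 5 wild-type pituitaries for Ccnd3, Ccne1 and Ccna2 and below them for Cdk6, while Ccnd2 had its lesions spread from 8.63 to 11.89.

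Among the D cyclins, Ccnd3 alone was called. Ccnd3, which encodes cyclin D3, had 8.77 in its lowest lesion, a median of 9.13 and 9.62 in its highest lesion, against 8.20, 8.15, 8.10, 8.11 and 8.51 in the 5 wild-type pituitaries. Every lesion was above every wild-type pituitary. The rat means were 9.10 ± 0.25 in adenomas (SD, n = 9) and 8.22 ± 0.17 in wild type (SD, n = 5), a log2 difference of 0.89 with a standard error of 0.12 and a 95% interval of 0.62 to 1.15. This is 1.85-fold (adjusted p = 0.000355, higher in 9 of 9 rats). Within number prefix 08 the difference was 1.01 (adjusted p = 0.0417), and within prefix 09 it was 0.75 (adjusted p = 0.0139). With the 2 adenoma rats of 7 and 8 months alone it was 0.62 and was not called (adjusted p = 0.205). The highest lesions were those of rat 1 (9.62 and 9.42) and rat 3 (9.58, 9.31 and 9.41).

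Ccnd1, which encodes cyclin D1, had 8.09 in its lowest lesion, a median of 8.72 and 9.32 in its highest lesion, against 7.99, 8.23, 8.95, 8.41 and 8.30 in wild type. The groups overlapped widely, with 14 of 16 lesions inside the wild-type range and 2 above it. Rat means were 8.59 ± 0.36 in adenomas (SD, n = 9) and 8.38 ± 0.36 in wild type (SD, n = 5). The difference of 0.22 (95% interval -0.18 to 0.61, adjusted p = 0.450) was not called. Within prefix 08 it was 0.53 and within prefix 09 it was -0.03.

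Ccnd2, which encodes cyclin D2, was the most variable member among adenomas. Its lesions had a lowest value of 8.63, a median of 10.78 and a highest value of 11.89, against 11.20, 11.60, 11.62, 11.07 and 11.09 in wild type. Of the 16 lesions, 9 lay below the wild-type range, 5 inside it and 2 above it. Averaged by rat the values were 11.82, 11.41, 9.72, 9.90, 11.43, 9.69, 10.53, 11.00 and 10.47 for rats 1 to 9. Rat 1 was above the wild-type range, rats 2 and 5 were inside it and the other 6 rats were below every wild-type pituitary. The means were 10.66 ± 0.80 in adenomas (SD, n = 9) and 11.32 ± 0.27 in wild type (SD, n = 5), and the difference of -0.65 was not called (95% interval -1.37 to 0.06, adjusted p = 0.189). With the 2 adenoma rats of 7 and 8 months alone, rats 4 and 6, the difference was -1.52 and was called (adjusted p = 0.0148). The slope on age among adenomas was 0.25 per month and was not called (adjusted p = 0.427).

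Both E cyclins were higher in adenomas. Ccne1, which encodes cyclin E1, the activator of Cdk2 at the G1/S boundary, had 5.41, 6.20 and 6.75 in its lowest, median and highest lesion, against 5.17, 4.99, 5.41, 5.38 and 4.74 in wild type. The lowest lesion, the only one of rat 4, was only just above the highest wild-type pituitary (5.414 against 5.409), and the other lesions stood clear of it. Rat means were 6.10 ± 0.37 in adenomas (SD, n = 9) and 5.14 ± 0.28 in wild type (SD, n = 5), a log2 difference of 0.96 with a standard error of 0.18, or 1.95-fold (adjusted p = 0.00217, higher in 9 of 9 rats). Within prefix 09 it was 1.07 (adjusted p = 0.0130), and within prefix 08 it was 0.90 and missed the threshold (adjusted p = 0.131). With the rats of 7 and 8 months alone it was 0.53 (adjusted p = 0.566).

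Ccne2, which encodes cyclin E2, had 6.45, 6.67 and 7.20 in its lowest, median and highest lesion, against 5.96, 6.60, 5.85, 5.71 and 6.05 in wild type. Wild-type rat 2 reached into the adenoma range, so that 12 of 16 lesions and 7 of 9 rats lay above every wild-type pituitary. Rat means were 6.76 ± 0.22 in adenomas (SD, n = 9) and 6.04 ± 0.34 in wild type (SD, n = 5), a log2 difference of 0.73 with a standard error of 0.14, or 1.65-fold (adjusted p = 0.00309). Within prefix 08, which holds wild-type rat 2, the difference was 0.40 (adjusted p = 0.252), and within prefix 09 it was 1.00 (adjusted p = 0.0114). With the adenomas of 7 and 8 months alone it was 0.57 (adjusted p = 0.538).

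The A cyclins differed from each other. Ccna2, which encodes cyclin A2, the partner of Cdk2 in S phase and of Cdk1 before mitosis, had 5.59, 6.43 and 7.19 in its lowest, median and highest lesion, against 5.17, 5.16, 4.91, 4.98 and 4.84 in wild type. All 16 lesions were above all wild-type pituitaries, and the lesions spread over a wider range than the wild-type rats. Rat means were 6.34 ± 0.47 in adenomas (SD, n = 9) and 5.01 ± 0.15 in wild type (SD, n = 5), a log2 difference of 1.33 with a standard error of 0.20, or 2.51-fold (adjusted p = 0.000613, higher in 9 of 9 rats). It was the only member called higher with a fold over 2. Like Ccne1, it was dim, with a mean below the median of all probe sets, and the fold of a dim probe set can be understated. Within prefix 09 it was 1.37 (adjusted p = 0.0196) and within prefix 08 it was 1.22 (adjusted p = 0.0522). Averaged by rat, rats 9, 6 and 2 were lowest (5.66, 5.87 and 5.92), and rats 5, 8, 3 and 7 were highest (6.85, 6.85, 6.77 and 6.76).

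Ccna1, which encodes cyclin A1, best known from the male germ line of the mouse, had 5.38, 5.57 and 5.90 in its lowest, median and highest lesion, against 5.64, 5.61, 5.65, 5.61 and 5.68 in wild type. The wild-type pituitaries were nearly alike, with 8 lesions below them, 6 above and 2 among them. Rat means were 5.57 ± 0.14 in adenomas (SD, n = 9) and 5.64 ± 0.029 in wild type (SD, n = 5), and the difference of -0.06 was not called (95% interval -0.22 to 0.09, adjusted p = 0.589).

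Of the kinases, Cdk6 was lower in adenomas and Cdk4 and Cdk2 were not called. Cdk6, a partner of the D cyclins, had 6.42, 7.43 and 8.18 in its lowest, median and highest lesion, against 9.09, 9.25, 8.79, 8.87 and 8.71 in wild type. No lesion came up to the lowest wild-type pituitary. Rat means were 7.42 ± 0.46 in adenomas (SD, n = 9) and 8.94 ± 0.22 in wild type (SD, n = 5), a log2 difference of -1.53 with a standard error of 0.20 and a 95% interval of -1.96 to -1.10, or 2.88-fold lower (adjusted p = 0.000278, lower in 9 of 9 rats). Within prefix 08 it was -1.82 (adjusted p = 0.0359) and within prefix 09 it was -1.30 (adjusted p = 0.0107). In the rats of 7 and 8 months alone it was -0.90 and no longer called (adjusted p = 0.0934).

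Cdk4, the other partner of the D cyclins, had 10.49, 10.75 and 11.10 in its lowest, median and highest lesion, against 10.89, 10.77, 10.71, 10.59 and 10.65 in wild type. The groups overlapped, with 12 of 16 lesions inside the wild-type range. Rat means were 10.76 ± 0.14 in adenomas (SD, n = 9) and 10.72 ± 0.12 in wild type (SD, n = 5), a difference of 0.04 (95% interval -0.13 to 0.21, adjusted p = 0.746).

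Cdk2, the partner of the E and A cyclins, had 6.52, 6.91 and 7.49 in its lowest, median and highest lesion, against 7.06, 6.80, 6.20, 6.10 and 6.55 in wild type. The wild-type rats spread over as wide a range as the lesions, and 13 of 16 lesions lay inside it. Rat means were 6.89 ± 0.20 in adenomas (SD, n = 9) and 6.54 ± 0.40 in wild type (SD, n = 5), a difference of 0.35 (95% interval 0.03 to 0.66) that missed the threshold after adjustment (adjusted p = 0.120). Without wild-type rat 1, the highest of the wild-type pituitaries, it was 0.47 and was called (adjusted p = 0.0231). Within prefix 08 it was 0.01 and within prefix 09 it was 0.54 (adjusted p = 0.0530).

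**Figure D2:**
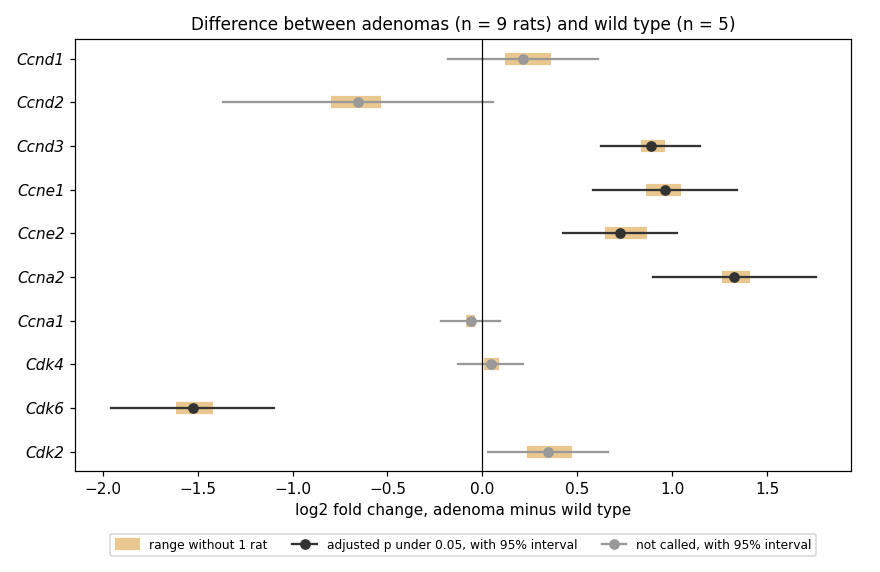
Log2 difference of adenomas (n = 9 rats) minus wild type (n = 5) for each member, with its 95% interval from limma and, as a band, the range of the difference when each of the 14 rats was left out in turn. Dark points were called at an adjusted p under 0.05. The band of every member, called or not, stayed on its own side of 0. The band does not cover the other settings. In some of those the uncalled Ccnd1, Ccna1 and Cdk4 changed sign (reaching -0.18, 0.01 and -0.08), while the other members kept theirs.

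Across the 29214 probe sets, every adenoma rat was above every wild-type rat in 2.66% and below in 2.16%. Of the 10 members, 3 were of the first kind (Ccnd3, Ccne1 and Ccna2) and 1 of the second kind (Cdk6). None of the 5 calls was lost when any 1 of the 14 rats was left out. The log2 difference then ranged over 0.83 to 0.96 for Ccnd3, 0.86 to 1.05 for Ccne1, 0.64 to 0.87 for Ccne2, 1.26 to 1.41 for Ccna2 and -1.62 to -1.42 for Cdk6.

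Whether close relatives shifted unequally was tested on the difference of 2 probe sets within each rat, with an exact two-sided permutation test over the 2002 ways to split the 14 rats, adjusted over 6 pairs. The smallest p that this design can give is 0.0005. Only the shift of such a difference between the groups is used here, since 2 probe sets have no common scale. Ccna2 minus Ccna1 was 0.76 in adenomas and -0.62 in wild type, a shift of 1.39 (exact permutation, adjusted p = 0.0015) that had 9 of 9 adenoma rats above all wild-type rats. Both probe sets were dim, with means below the median of all probe sets, so an unmoved value of Ccna1 does not show that cyclin A1 mRNA did not change. Cdk4 minus Cdk6 was 3.35 in adenomas and 1.78 in wild type, a shift of 1.57 (exact permutation, adjusted p = 0.0015), again with 9 of 9 rats above. Both pairs thus differed in their shift by more than the spread between rats.

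The D cyclins also shifted unequally. Ccnd2 minus Ccnd3 was 1.56 in adenomas and 3.10 in wild type, a shift of -1.54 (exact permutation, adjusted p = 0.0030) with 9 of 9 rats below all wild-type rats. Ccnd1 minus Ccnd2 was -2.07 in adenomas and -2.94 in wild type, a shift of 0.87 (exact permutation, adjusted p = 0.0180) with 7 of 9 rats above. Ccnd1 minus Ccnd3 was -0.51 in adenomas and 0.16 in wild type, a shift of -0.67 (exact permutation, adjusted p = 0.0150) with 6 of 9 rats below. The E cyclins gave no such difference, with Ccne1 minus Ccne2 at -0.66 in adenomas and -0.90 in wild type, a shift of 0.24 (exact permutation, adjusted p = 0.323).

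**Figure D3:**
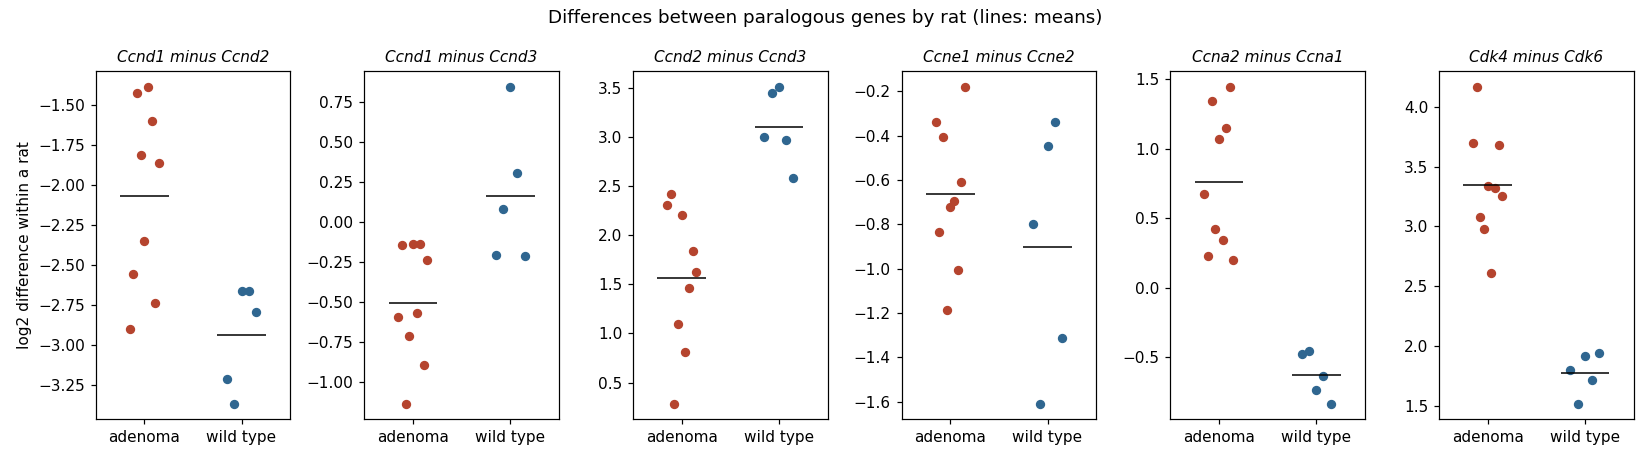
Difference in log2 expression between the probe sets of related members within each rat, for 9 adenoma rats (left in each panel) and 5 wild-type rats (right). The groups do not overlap for Ccnd2 minus Ccnd3, Ccna2 minus Ccna1 and Cdk4 minus Cdk6, and they overlap for the other pairs.

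The members differed in how alike the lesions of 1 rat were. The SD within rats was taken over the 12 lesions of the 5 rats with several, and again without the rat of the widest range, a choice made after seeing the data. Ccna2 had an SD of 0.26 within rats, or 0.19 without rat 5, against 0.47 between the 9 rat means. Ccnd1 had 0.15 within rats, or 0.099 without rat 5, against 0.36 between rats. For Ccnd2 the SD was 0.52 within rats and 0.80 between rats, and rat 3 set the first of these, which was 0.11 without that rat. Cdk6 had 0.43 within rats and 0.46 between rats, and without rat 5 the SD within rats was 0.19. Cdk2 had 0.24 within rats, or 0.18 without rat 3, against 0.20 between rats, so that its lesions varied about as much in a rat as among rats. The widest spread was that of Ccnd2 in rat 3, with lesions at 8.63, 10.05 and 10.47, while the 3 lesions of rat 5 had 11.51, 11.49 and 11.28. The next widest was that of Cdk6 in rat 5, at 6.70, 7.49 and 8.18. Even the highest of these lay below the lowest wild-type pituitary, at 8.71.

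**Figure D4:**
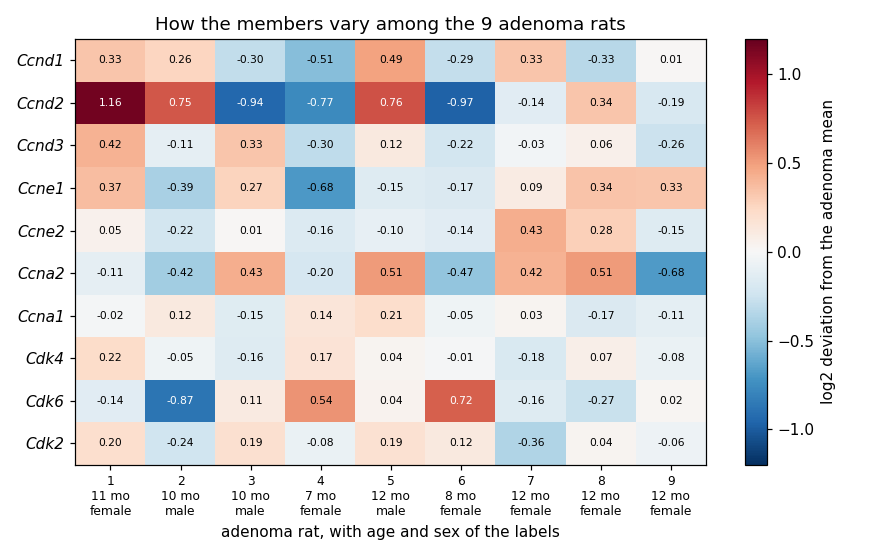
Deviation of each adenoma rat from the mean of the 9 adenoma rats, in log2 units, for each member (rows) and rat (columns, 1 to 9). Ccnd2 shows the largest deviations, above the mean in rats 1, 2 and 5 and below it in rats 3, 4 and 6.

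A correlation was computed over the 9 adenoma rats for each of the 45 pairs of members. None passed after adjustment (Pearson's r with exact permutation, 0 of 45 at an adjusted p under 0.05 and 4 at an unadjusted p under 0.05). Ccnd2 and Cdk6 had r = -0.70 (exact permutation p = 0.0303, adjusted p = 0.455) and Spearman's rho = -0.67 (exact permutation p = 0.0589, adjusted p = 0.429). Without rats 1 and 5, the 2 farthest from the median of Ccnd2, r was -0.91. Ccnd1 and Ccnd2 had r = 0.75 (exact permutation p = 0.0303, adjusted p = 0.455), rho = 0.62 (exact permutation p = 0.0857, adjusted p = 0.429) and r = 0.66 without rats 4 and 5, the 2 farthest from the median of Ccnd1. Within prefix 08 (5 rats) and prefix 09 (4 rats), too few for a test, r of Ccnd1 and Ccnd2 was 0.93 and 0.11, so that it was near 0 in prefix 09, and r of Ccnd2 and Cdk6 was -0.62 and -0.96. The other pairs at an unadjusted p under 0.05 were Ccne1 and Ccna1, with r = -0.76 (exact permutation p = 0.0204, adjusted p = 0.455), rho = -0.65 (exact permutation p = 0.0666, adjusted p = 0.429) and r = -0.67 without rats 2 and 4, and Ccne2 and Ccna2, with r = 0.67 (exact permutation p = 0.0405, adjusted p = 0.456), rho = 0.62 (exact permutation p = 0.0857, adjusted p = 0.429) and r = 0.56 without rats 7 and 8. Within prefixes 08 and 09 their r was -0.74 and -0.62 for Ccne1 and Ccna1, and 0.50 and 0.96 for Ccne2 and Ccna2.

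Sex and age gave no called member. The interaction of sex with genotype was called in 0 of 29214 probe sets by limma (0%, with 1981 at an unadjusted p under 0.05), and the lowest adjusted p of a member was 0.795 for Cdk2, whose difference was 0.06 in females and 0.57 in males. All 3 male adenoma rats had prefix 08, so sex and prefix were partly joined. The slope on age among the 9 adenoma rats was called by limma in 1 probe set (0.00342%, with 3434 at an unadjusted p under 0.05), which was no member. Ccne1 had the lowest adjusted p of the members, at 0.302, with a slope of 0.14 per month (limma, unadjusted p = 0.0135). Ccnd1 had a slope of 0.12 per month (limma, unadjusted p = 0.0372), and the other members had an unadjusted p of 0.0512 or more. With 9 rats, a slope that was not called does not show that age had no bearing.

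For each called member, the 5 genes whose values most resembled it were found over the 14 rats after the group mean was subtracted, as a description over all probe sets with 1 symbol. The genes were read from the same arrays, so that array quality enters these values too. They were also picked as the highest of 15310 probe sets, and among so many a high r over 14 values can arise by chance. This was not tested. For Ccna2 they were Cenpu, Tpx2, Kif4a, Cdc20 and Ttk, with Pearson's r of 0.94, 0.94, 0.93, 0.93 and 0.92. These encode proteins of the kinetochore, the spindle, the chromosome arms and the spindle checkpoint. For Ccnd3 the nearest gene was Tlcd1 (r = 0.93), followed by Hrob, Slc6a9, Tmem30c and Hsd17b3 at 0.84 to 0.81. For Cdk6 they were Plod2, Ptbp1, Enc1, Ptprk and Pou1f1 at 0.88 to 0.85, the last of which encodes a pituitary transcription factor of somatotrophs, lactotrophs and thyrotrophs. For Ccne1 they were Adap2, Pde8b, Or1ad5, Gpr153 and Adm2 at 0.86 to 0.81, and for Ccne2 Htr3a, Mageh1, Afg3l1, Cndp1 and Trim72 at 0.84 to 0.79.

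The rest of the pathway was described from 8 lists of 90 measured genes, of which 33 were higher in adenomas, 9 were lower and 48 were not called, against 8.49% higher and 9.06% lower over all probe sets. The count of lower genes, and the counts of the ubiquitin ligase factors and of the upstream regulators in each direction, were near those shares. Some of these genes, and some of the members, were among those that the study had picked from the same samples, so the counts are no independent evidence of a direction. Of 6 measured CDK inhibitors, 4 were higher and 0 lower, and their median log2 difference was 0.87, against -0.03 over all probe sets. Cdkn2c, which encodes p18INK4c, an inhibitor of Cdk4 and Cdk6, averaged 9.23 ± 0.49 in adenomas (SD, n = 9) and 7.81 ± 0.22 in wild type (SD, n = 5), a difference of 1.42 (limma adjusted p = 0.000572). Cdkn1a, which encodes p21, differed by 1.08 (limma adjusted p = 0.00284), and Cdkn2a, which encodes p16INK4a and p19ARF, by 0.65 (limma adjusted p = 0.0203). Cdkn1b, at 0.33, was the fourth.

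Of 8 measured genes of the retinoblastoma and E2F family, 2 were higher and 1 was lower (median 0.18). E2f1 and E2f7, E2F factors that activate and repress cell cycle genes, differed by 0.46 and 0.29. Tfdp2, a binding partner of E2F factors, was lower at -0.95. Rb1, the retinoblastoma gene, had a difference of 0.0036 and was not called. Of 11 CDK-activating and regulatory factors, 2 were higher (median 0.15), namely the phosphatases Cdc25c at 0.57 and Cdc25a at 0.43. Of 7 measured ubiquitin ligase factors for these cyclins, Fbxo31 was higher at 0.66 and Fbxl12 lower at -0.30 (median -0.03).

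The lists of DNA replication and of mitotic cyclins and proliferation markers held most of the genes called higher. Of 16 measured genes of replication licensing and S phase, 10 were higher and none was lower (median 0.48), with Rrm2, a subunit of ribonucleotide reductase, at 2.66, the helicase subunits Mcm5 at 1.24 and Mcm6 at 1.02, and Gmnn, which encodes geminin, at 0.93. Of 8 measured mitotic cyclins and proliferation markers, all 8 were higher (median 1.36). Among them were Top2a, a topoisomerase, at 2.40, the mitotic cyclins Ccnb1 at 2.17 and Ccnb2 at 1.42, and the checkpoint kinase Bub1 at 1.72. Of 15 measured upstream regulators of the D cyclins, 2 were higher and 2 were lower (median -0.09). The transcription factors Stat3 and Rela differed by 0.52 and 0.27, and Egr1 and Klf5 by -1.36 and -0.59.

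Of 19 other cyclins and kinases, 4 were higher and 5 were lower (median -0.20). Cdk14, a partner of cyclin Y, was higher at 1.33, Cdk18 at 0.62, Ccni at 0.40 and Cdk9, a kinase of transcription elongation, at 0.32. Of the lower ones, Cdk19, a kinase of the Mediator complex, was at -0.91, Ccnk and Cdk17 were each at -0.46, and Ccnt2 was at -0.34.

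**Figure D5:**
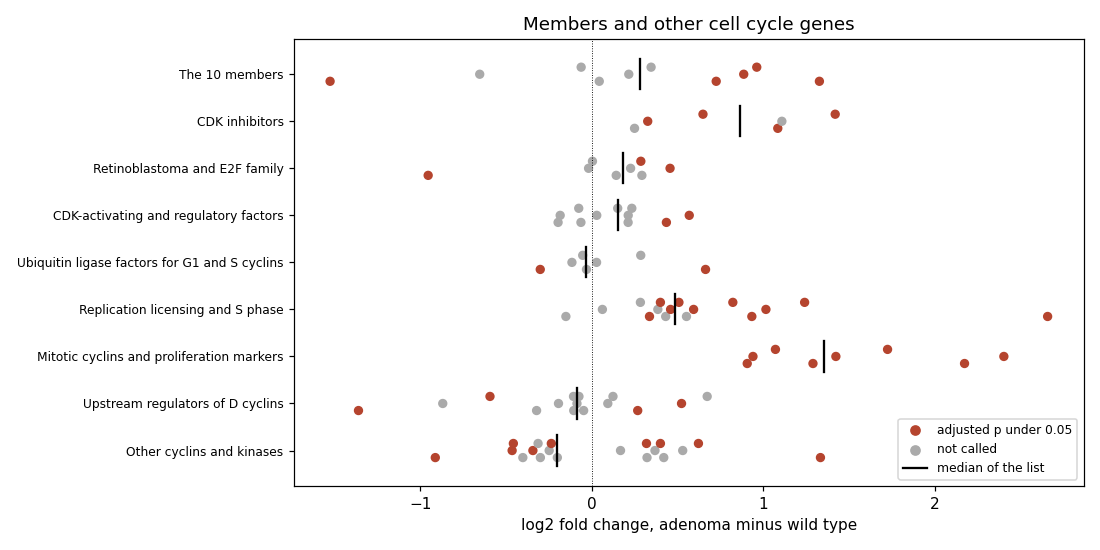
Log2 difference of adenomas minus wild type for each measured gene of the 8 pathway lists and for the 10 members, 1 row per list, with called genes filled and a mark at each list's median. The mitotic list lies furthest to the right, with a median of 1.36, and the members lie around a median of 0.28.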

How the data were processed

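Values were read from the table of 21 arrays. The authors made the deposited log2 values in Affymetrix Expression Console with RMA (background correction, sketch-quantile normalization and median polish) (versions not given in the sources used here). Quantile normalization gives arrays like distributions, so a shift of most genes would not show. Symbols came from the platform annotation, with 15310 probe sets of 1 symbol, 323 of several and 13581 of none. Array precision is limited by the number of arrays, and no 2 arrays were identical (correlations 0.941 to 0.994). Lesions of 1 sample number were averaged. limma 3.58.1 in R 4.3.3 fitted 1 model per probe set (12 residual and 3.21 prior degrees of freedom). The fit was tested on simulated data. Exact permutation tests used Python 3.11.15, scipy 1.17.1 and numpy 2.4.6. Named genes were the members, Cdkn1b, up to 4 called genes per direction of each list by size, and the 5 genes most like each called member. Markers were named where a result touches them. The members and lists were chosen with earlier results of these data known. Alternatives covered the treatment of lesions (the rat as a random block, independent samples, the methods' t-test), number prefix, sex, age, a filter on dim probe sets, rescaling, array weights, variance modelling, thresholds, a replicate block and leaving out each rat.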

Additional observations from a re-analysis of the deposited data

Results flagged for a closer look

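In the 10 members, the highest or lowest value of each group was set against its nearest neighbour, and 1 of 20 groups stood out, about the 1 in 20 that chance gives. It was Ccnd3 in the wild-type pituitaries, where rat 5 had 8.511 and the next highest rat had 8.201, a gap of 0.762 of the whole range. Without that rat the log2 difference of Ccnd3 between adenomas and wild type was 0.96 (limma, adjusted p = 0.000372), against 0.89 with it.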

How the results depend on the processing

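The 4 members called higher became 1 within prefix 08 alone, 1 with the adenomas of 7 or 8 months alone, 2 with the filter on dim probe sets (7 of the 10 members passed it, and Ccne1, Ccna2 and Ccna1 did not) and 1 with a fold over 2, and ranged over 4 to 5 when 1 rat was left out. The 1 member called lower stayed at 1 when any 1 rat was left out. The 2479 probe sets called higher became 363 within prefix 08, 119 with adenomas of 7 or 8 months, 1101 at an adjusted p under 0.01 and 417 with a fold over 2, and ranged over 1573 to 3106 with 1 rat left out. The 2648 called lower became 4142 with lesions as independent samples, 4014 with the methods' t-test, 345 within prefix 08, 14 with adenomas of 7 or 8 months, 1703 with the dim filter, 1052 at an adjusted p under 0.01 and 307 with a fold over 2, and ranged over 1649 to 3780 with 1 rat left out. The single-prefix, young-adenoma and leave-one-out fits used fewer samples, and otherwise the cause was not tested. With lesions as independent samples Cdk2 was called (0.39, limma adjusted p = 0.0479). Within prefix 08 alone the shifts of Ccnd1 minus Ccnd2, Ccnd1 minus Ccnd3, Ccnd2 minus Ccnd3, Ccna2 minus Ccna1 and Cdk4 minus Cdk6 were 1.08, -0.48, -1.56, 1.21 and 1.79, and within prefix 09 alone 0.81, -0.78, -1.58, 1.52 and 1.36. None passed there (exact permutation, adjusted p of 0.143 to 0.238 and of 0.0857 to 0.137), in designs with few possible splits. A mean over several probe sets was not run because each member had 1.

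The labels number lesions and wild-type pituitaries, but the 5 shared numbers had correlations of 0.013 to 0.217 and not every sample was most like its own number, so they were not taken as pairs. With the number as a replicate block, 4 members were higher and 1 lower, and 2453 probe sets were higher and 2291 lower. That contrast rests on the 5 lesions with a shared number alone. They came from rats 1, 2 and 3 and were taken as separate values, so the block gives no check on the other adenoma rats. The block changed no call of a member and ended that of Cdkn1b (0.22, limma adjusted p = 0.203). The call of Cdkn1b was lost in 9 of 16 settings other than leaving out a rat. Among these are the adjusted p under 0.01 and the fold over 2, which it fails without a new fit (0.33, limma adjusted p = 0.0324).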
